A study of Mus musculus with 7 samples.

Results

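The 9 genes described here encode transcription factors of the hair follicle and of the Runx and Gata families: *Sox9*, *Lhx2*, *Nfatc1*, *Tbx1*, *Runx1*, *Runx2*, *Runx3*, *Gata3* and *Gata6*. They were chosen by name, for their known roles, out of 21938 protein-coding genes, by a rule that uses no measured value. Earlier results of these data were known when they were chosen. At each gene the H3K27-Ac peaks of 3 tumour cell clones were sorted into promoter peaks (within 1 kb of a transcript start), body peaks (the rest of the gene) and distal peaks (within 250 kb of *Sox9* and within 100 kb of the others).

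The clones were grown from skin tumours of *Cdkn2ab*-deficient mice on an FVB/129P2 backcross background. The *Cdkn2ab* locus encodes inhibitors of the cyclin D-dependent kinases and the Arf tumour suppressor, and every sample carried its loss, so the series holds no second genotype. Each clone was picked from soft agar, which selects for growth without anchorage, and was then grown on plastic, so a clone stands for 1 selected line and not for a tumour. The 7 samples are 4 H3K27-Ac and 3 IgG libraries. Clone 3 has 2 libraries of each antibody, and no IgG library is labelled for clone 2. Which control its peaks were called against is not given in the sources used here, so its fold enrichments and background values are over an unnamed control. With a single condition there was no comparison to test, and values are given per clone with the SD over the 3 clones (n = 3).

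Acetylation of lysine 27 on histone H3 (H3K27-Ac) marks nucleosomes at active promoters and enhancers. It carries no strand, so a peak over the starts of neighbouring genes cannot be assigned to either. In the hair follicle, SOX9, LHX2, NFATC1 and TBX1 are known from the bulge, the niche of the hair follicle stem cells. RUNX proteins bind DNA with their partner CBFB. Each *Runx* gene is transcribed from a distal promoter (P1) and a proximal one (P2), which give proteins with different first residues. GATA3 takes part in forming the inner root sheath, and GATA6 is known from the upper follicle and the sebaceous duct.

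The lists held 29182, 49587 and 29277 peaks in clones 1, 2 and 3. The number of ChIP reads at each summit was solved from the deposited fold enrichment and p-value. It was at least 13, 12 and 25 reads in the 3 lists, so a weaker site than this is not in the lists, and "no peak" below means no peak past the threshold. Raw reads are not comparable between clones: the 90th percentile of reads per peak was 137, 237 and 114. Across clones a peak is therefore also given as its percentile of reads within the list of its own clone. Clone 2 stood apart with the most peaks. Of 7 basal keratinocyte markers, 1 (*Itga6*) had a promoter peak in all 3 clones, *Krt14* had one in clone 1, and *Krt5*, *Trp63*, *Itgb4*, *Cdh1* and *Epcam* had none in any. Of 8 mesenchymal markers, 8, 8 and 5 had one in clones 1, 2 and 3, with 43 to 184, 47 to 240 and 45 to 127 reads. Of the 9 hair follicle and hair germ markers, 4 of which are among the genes described here, 5 carried one in each of the 3 clones. They were *Sox9*, *Nfatc1* and *Tbx1*, described here, and *Cd34* and *Cdh3*. *Krt15* and *Lhx2* had one in clone 2 only, and *Lgr5* and *Lef1* had none. Of all protein-coding genes, 46.5% had one in all 3 clones. The marks at the genes below are thus those of cells in which most defining promoters of keratinocytes had no peak, and the part of this in the results was not tested. The other lists gave 1, 4 and 2 of 6 dermal papilla, 2, 2 and 2 of 5 melanocyte, 0, 1 and 0 of 4 blood cell and 0, 0 and 1 of 4 endothelial markers.

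A promoter peak was present at 8, 9 and 8 of the 9 genes in clones 1, 2 and 3, and at 8 of them in all 3. Among all protein-coding genes the share with a promoter peak was 49.8%, 56.9% and 48.1%, and 46.5% had one in all 3 clones. The exception was *Lhx2*. The strongest promoter peak of the genes had 58 to 136 reads in clone 1, 40 to 238 in clone 2 and 52 to 108 in clone 3, where the median over all genes with a promoter peak was 98, 213 and 83 reads. *Nfatc1* and *Runx3* lay above that median in all 3 clones, and *Tbx1*, *Runx1*, *Runx2* and *Gata3* lay below it in all 3. *Sox9* lay above it in clone 1 only, and *Gata6* in clone 2 only. When a peak had to cover a start base itself, 7 genes remained: the 2 promoter peaks of *Sox9* in clone 3 left its start base uncovered.

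**Figure D1:**
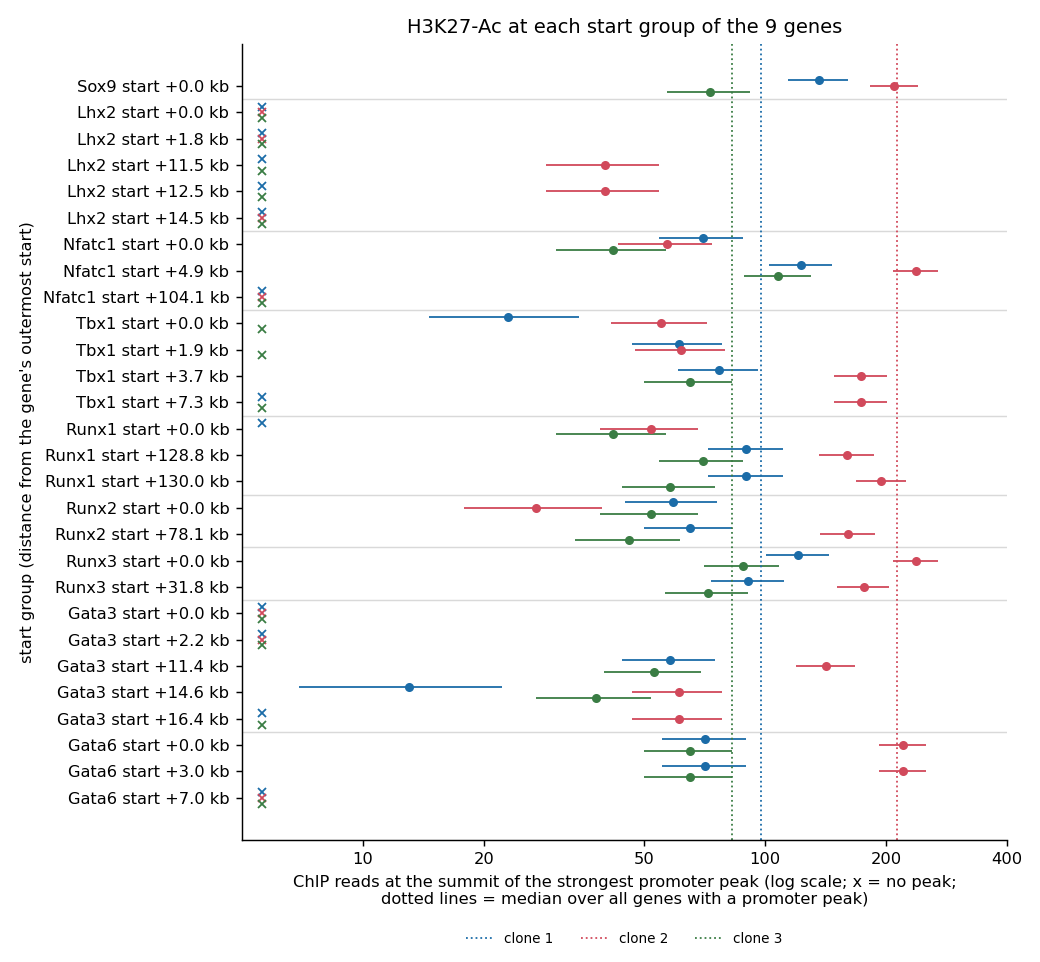
Reads at the summit of the strongest promoter peak (x axis, log scale) for each start group of the 9 genes (y axis, starts within 1 kb of each other joined), as points with exact Poisson 95% intervals; crosses are start groups with no peak, and dotted lines are the median over all genes with a promoter peak in that clone (98, 213 and 83 reads). The outermost starts of *Lhx2* and *Gata3* have no peak in any clone, and the points of clone 2 lie to the right at most starts.

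*Sox9*, which encodes an HMG-box factor of the hair follicle stem cells, lies on chromosome 11 (chr11:112782224-112787760, plus strand, GRCm38). The strongest peak at its single start had 136, 210 and 73 reads in clones 1, 2 and 3 (95% Poisson intervals of counting error 114 to 161, 183 to 240 and 57.2 to 91.8). In the 3 lists these are percentiles 89.9, 88.0 and 70.8. Peaks covered 59.9%, 60.3% and 77.8% of the gene, and an exonic site 2.99 kb past the start had 51, 82 and 51 reads. The start of *BC006965*, a transcript next to *Sox9*, lies within 1 kb of this peak in each clone.

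Around *Sox9* there were fewer distal peaks than at the median gene. Within 250 kb of the gene there were 2, 8 and 3 distal peaks (4.33 ± 3.21, SD, n = 3), where the median over all genes in the same window was 8, 13 and 9. Fewer distal peaks than at *Sox9* were found at 18.5%, 36.1% and 21.2% of genes. None of the distal peaks of *Sox9* lay at a start of another gene. The counts over all genes, here and below, include peaks at starts of neighbouring genes. Counts without them were not formed, so the comparison is not one of enhancers alone. A single distal element had a peak in all 3 clones, at chr11:112620366-112622021, 160.2 kb upstream, with 46, 174 and 47 reads and summits within 129 bp of each other. A peak just past the gene end was found in clones 1 and 3, 1 at 59.7 kb downstream in clone 3, and 7 peaks from 199.6 to 244.5 kb downstream in clone 2, each with 21 to 35 reads. Without clone 2 the mean was 2.50 distal peaks. The window of 100 bases on either side of the middle summit of the shared element held none of the 4 motif words searched (RUNX, GATA, SOX and AP-1, spelled out further on) and is shown because this is the only distal site of *Sox9* that the clones had in common.
Sox9 upstream element (chr11:112621140-112621340, plus strand): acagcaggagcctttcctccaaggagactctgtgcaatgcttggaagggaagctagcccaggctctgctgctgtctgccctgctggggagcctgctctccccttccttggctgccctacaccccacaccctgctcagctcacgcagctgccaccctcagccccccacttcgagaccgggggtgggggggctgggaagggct

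*Lhx2*, which encodes a LIM-homeodomain factor of the bulge, had the fewest bases of the gene under peaks among the 9 (chr2:38339281-38369733, plus strand). No peak touched any of its 5 start groups in clones 1 and 3. In clone 2, 2 peaks of 20 and 40 reads lay inside the gene next to the internal starts at 11.5 and 12.49 kb, and neither covered a GENCODE start, though the stronger one covered an internal RefSeq start at 38351308. They stood at percentiles 15.1 and 56.9 of their list. *Lhx2* had no body peak in any clone, and its single shared distal site was the promoter of *Dennd1a*, 51.6 kb upstream, with 79, 195 and 73 reads.

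*Nfatc1*, a calcineurin-dependent factor that holds bulge stem cells in quiescence, had promoter peaks at its outermost start and at a second start 4.90 kb further in (chr18:80606205-80713071, minus strand). The inner start had the stronger peak in each clone. It carried 123, 238 and 108 reads, against 70, 57 and 42 at the outer start. In percentiles this is 87.4, 90.1 and 88.1 at the inner start, and 72.3, 67.4 and 29.9 at the outer one. An element 56.9 kb into the gene had 110, 159 and 62 reads, a site 1.41 kb before the outer start had 97, 67 and 84, and a site 50.4 kb past the gene end had 51, 133 and 56. These 3 elements were found in all 3 clones with summits 93, 92 and 274 bp apart. Clone 2 had 8 body peaks, against 1 and 2 in the other clones.

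*Tbx1*, a T-box factor of the bulge, is short and was covered by peaks to 51.3%, 81.3% and 20.7% (chr16:18580979-18590671, minus strand). Its start 3.70 kb inside the gene had 77, 173 and 65 reads in the 3 clones. The outermost start had 23 and 55 reads in clones 1 and 2, and the start 1.86 kb further in had 61 and 62; clone 3 had no peak at either. Of its distal sites in all 3 clones, 3 lay at starts of other genes, *Gnb1l* with *Rtl10* (65, 157 and 65 reads), *Gm49601* with *Sept5* (38, 72 and 38) and *Sept5* (78, 100 and 44). The other one, 95.9 kb upstream at chr16:18686548-18688136, touched no start and had 106, 193 and 91 reads, more than the promoter of *Tbx1* in each clone.

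At the *Runx* genes the outermost coding start group was taken as P1 and the next one as P2. Translated isoforms with the first residues MRIPV began only at P2 starts. Not every isoform from those starts had these residues. P1 and P2 lie 128.8 kb apart in *Runx1* (chr16:92601466-92826149, minus strand), 78.1 kb in *Runx2* (chr17:44495987-44814797, minus strand) and 31.8 kb in *Runx3* (chr4:135120652-135177990, plus strand). Both promoters had peaks in all 3 clones at *Runx2* and *Runx3*. At *Runx1*, which is known for its part in activating hair follicle stem cells, P2 had a peak in all 3 clones, and P1 had one in clones 2 and 3 only. The P1 peak of clone 3 had a −log10 q of 4.85 and was lost at a threshold of 5. Of 7326 genes with at least 2 coding start groups, 9.24% had the outermost and an inner one marked in all 3 clones.

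The sequences before these starts are shown because the marks at them differed, and because the promoters differ in base composition. Each run holds the 250 bases before the outermost annotated start, read from GRCm38.p6 at the RefSeq promoter entries, with the RUNX word (TGTGGT, or ACCACA on the other strand) and the AP-1 word (TGANTCA) in capitals. For 6 of the 9 genes RefSeq promoter entries were at hand; *Sox9*, *Nfatc1* and *Gata6* had none, nor had P2 of *Runx2*.
Runx1 P1 (chr16:92826150-92826399, minus strand): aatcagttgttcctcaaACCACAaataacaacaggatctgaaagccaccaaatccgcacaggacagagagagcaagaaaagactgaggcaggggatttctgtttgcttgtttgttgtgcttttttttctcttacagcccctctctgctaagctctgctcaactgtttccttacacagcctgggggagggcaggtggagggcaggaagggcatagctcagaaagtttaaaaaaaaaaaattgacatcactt
Runx1 P2 (chr16:92697330-92697579, minus strand): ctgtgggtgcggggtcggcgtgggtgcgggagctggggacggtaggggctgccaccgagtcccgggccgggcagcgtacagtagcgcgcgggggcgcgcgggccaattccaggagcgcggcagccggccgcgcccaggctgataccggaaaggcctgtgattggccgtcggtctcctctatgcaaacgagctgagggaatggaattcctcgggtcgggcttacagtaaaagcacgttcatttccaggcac
Runx2 P1 (chr17:44814798-44815047, minus strand): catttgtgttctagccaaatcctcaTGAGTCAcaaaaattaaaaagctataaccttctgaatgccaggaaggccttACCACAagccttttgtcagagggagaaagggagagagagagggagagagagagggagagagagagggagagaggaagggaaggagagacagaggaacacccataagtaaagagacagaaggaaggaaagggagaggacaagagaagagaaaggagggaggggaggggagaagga
Runx3 P1 (chr4:135120395-135120644, plus strand): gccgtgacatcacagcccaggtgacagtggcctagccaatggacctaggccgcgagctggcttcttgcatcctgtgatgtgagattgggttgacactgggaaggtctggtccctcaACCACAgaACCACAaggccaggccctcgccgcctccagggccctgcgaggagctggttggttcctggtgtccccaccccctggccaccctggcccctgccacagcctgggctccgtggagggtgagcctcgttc
Runx3 P2 (chr4:135152246-135152495, plus strand): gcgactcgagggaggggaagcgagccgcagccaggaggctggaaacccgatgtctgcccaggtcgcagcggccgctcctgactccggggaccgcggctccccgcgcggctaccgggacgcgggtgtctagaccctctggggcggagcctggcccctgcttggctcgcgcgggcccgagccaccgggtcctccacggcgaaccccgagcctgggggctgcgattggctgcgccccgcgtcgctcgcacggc

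The P1 windows held 1, 0 and 8 CpG dinucleotides in *Runx1*, *Runx2* and *Runx3*, and the P2 windows of *Runx1* and *Runx3* held 27 and 33. Over 32851 RefSeq promoters the median was 6 (quartiles 2 and 16). A RUNX word was present in all 3 P1 windows, 1 time in *Runx1*, 1 time in *Runx2* and 2 times in *Runx3*, and in neither P2 window. It occurs in 14.0% of all RefSeq promoters of this length. *Runx2* P1 also held 1 AP-1 word, as do 6.75% of promoters. The windows of all RefSeq promoters end at the RefSeq start. Those shown end at the outermost annotated start, which lies further out for *Runx1* P1, *Runx2* P1 and *Runx3* P2. A match of letters is not a binding site. Peaks covered none of the *Runx1* P1 window in any clone, since the peaks of clones 2 and 3 lay past the start. They covered the *Runx1* P2 window by 250, 250 and 113 bases, the *Runx2* P1 window by 250, 214 and 250, the *Runx3* P1 window wholly in each clone, and the *Runx3* P2 window by 250, 250 and 211 bases.

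*Runx3* had more reads at P1 than at P2 in each clone. P1 had 121, 238 and 88 reads in clones 1, 2 and 3, and P2 had 91, 176 and 72. The share of P1 in their sum was 57.1%, 57.5% and 55.0% (exact Clopper-Pearson 95% intervals 50.1% to 63.8%, 52.6% to 62.3% and 46.9% to 62.9%), with a mean of 56.5% ± 1.33 (SD, n = 3). By fold enrichment the order was the opposite: 13.1, 25.7 and 5.63 at P1 against 19.8, 39.2 and 7.73 at P2, a P1 share of 40.5% ± 1.39. The control background under P1 was 7.08, 7.01 and 12.97 ChIP reads, against 2.36, 2.21 and 6.49 under P2. Which of the *Runx3* promoters was the more acetylated thus depended on the measure. The start of the antisense transcript *Gm16225* lies under the P1 peak, and 53 bases of the P1 window printed above lie in its exon.

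At *Runx2*, the regulator of bone cell formation, P1 had fewer reads than P2 in clones 1 and 2 and more in clone 3. P1 had 59, 27 and 52 reads, and P2 had 65, 161 and 46. The P1 share was 47.6% (38.5% to 56.7%) in clone 1, 14.4% (9.68% to 20.2%) in clone 2 and 53.1% (42.7% to 63.2%) in clone 3. The intervals of clones 1 and 3 overlap, and that of clone 2 lies below both. Over the clones the share was 38.3% ± 20.9 (SD, n = 3), and 50.3% without clone 2. The start of the antisense transcript *Runx2os1* lies under the P2 peak.

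At *Runx1* the strongest peak within 1 kb of the first P2 start group had 90, 160 and 70 reads. In clone 2 the next start group further in had 195. In clone 1 a single peak of 5391 bp spanned both groups. Its summit lay 1807 bp past the first P2 start, at the next group. The shares below use the first P2 start group. With all inner start groups as P2, the mean P1 share was 29.3% in place of 31.0%. P1 had 52 reads in clone 2 and 42 in clone 3, a P1 share of 24.5% (18.9% to 30.9%) and 37.5% (28.5% to 47.1%). P2 was thus the stronger in both clones in which the share could be formed.

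**Figure D2:**
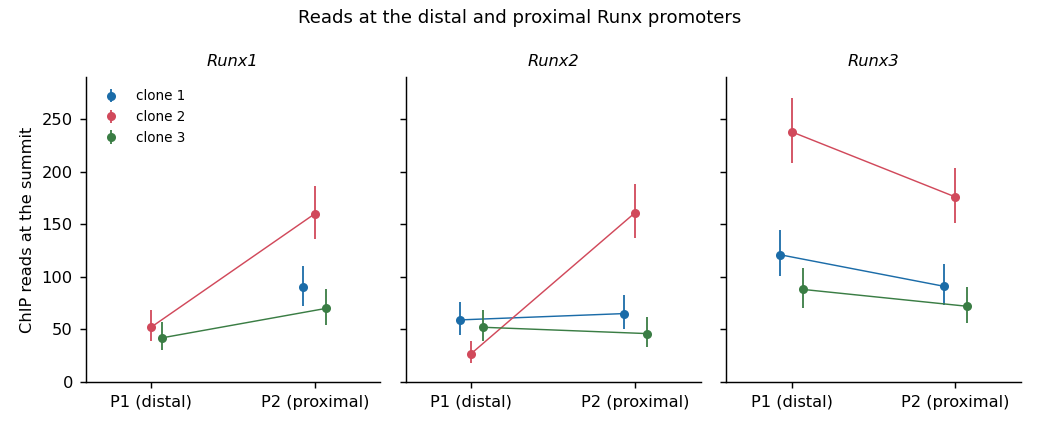
ChIP reads at the summit (y axis) of the strongest peak at the distal (P1) and the proximal (P2) promoter (x axis) of *Runx1*, *Runx2* and *Runx3*, 1 line per clone, with exact Poisson 95% intervals. For *Runx1*, P2 is the first P2 start group only, so the peak of 195 reads at the next group in clone 2 is not drawn. The lines of *Runx3* fall from P1 to P2 in each clone, that of *Runx2* rises steeply in clone 2 only (27 to 161 reads), and clone 1 has no P1 point at *Runx1*.

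The bodies of *Runx1* and *Runx2*, the longest of these genes (224.7 and 318.8 kb), carried most of the body peaks. Peaks covered 11.0%, 11.7% and 5.86% of *Runx1* in clones 1, 2 and 3, and 5.54%, 3.58% and 5.66% of *Runx2*. The counts of body peaks were not corrected for length or set beside those of all genes. *Runx1* had 13, 32 and 9 of them (18 ± 12.3, SD, n = 3), *Runx2* had 21, 12 and 14 (15.7 ± 4.73) and *Runx3* had 4, 14 and 0 (6 ± 7.21). In clones 1 and 3 every body peak of *Runx1* lay past P2. An intronic site at chr16:92619817-92623412, 205.0 kb from the P1 start, had 115, 219 and 110 reads, more than P2 in each clone. The site next to it, at chr16:92623516-92625385, had 50, 121 and 55 reads, and its window holds 2 RUNX words. Another site, at chr16:92608275-92612330, had 88, 94 and 121 reads, more than the first in clone 3. The windows of the first and second site are shown for their place in the gene, the second also for its words. They are centred on the middle one of the 3 summits, which spread over 689 and 847 bp, so they do not hold the summit of every clone.
Runx1 intronic element 1 (chr16:92621060-92621260, minus strand): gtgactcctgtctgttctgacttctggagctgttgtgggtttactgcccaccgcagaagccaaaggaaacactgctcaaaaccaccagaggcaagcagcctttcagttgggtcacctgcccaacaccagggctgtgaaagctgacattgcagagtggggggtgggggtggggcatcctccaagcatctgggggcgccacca
Runx1 intronic element 2 (chr16:92623902-92624102, minus strand): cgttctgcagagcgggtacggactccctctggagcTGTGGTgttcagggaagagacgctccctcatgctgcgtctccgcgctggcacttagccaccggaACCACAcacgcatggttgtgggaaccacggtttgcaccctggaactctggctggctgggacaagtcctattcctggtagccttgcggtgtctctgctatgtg

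The strongest body peak of *Runx2* was the start of *Supt3*, a gene that begins between P1 and P2. It had 158, 224 and 116 reads, more than either *Runx2* promoter in each clone. Away from it, the body sites of *Runx2* found in all 3 clones had 19 to 32, 21 to 60 and 40 to 53 reads. From 154.6 to 161.8 kb past the P1 start, 3 sites had peaks in clones 1 and 3 and not in clone 2, with 41, 25 and 22 reads in clone 1 and 85, 53 and 75 in clone 3. A site among them had a peak in each clone (28, 34 and 45 reads). These sites formed most of the largest domain of *Runx2* in clone 3. Outside its body *Runx2* had 0, 1 and 0 distal peaks.

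*Runx3* had the most distal peaks of the 9 genes, 15, 24 and 6, where the median over all genes within 100 kb was 3, 5 and 3. More distal peaks than these were found at 4.26%, 8.33% and 25.4% of genes. Of 28 distal stretches 3 were found in all 3 clones. They lay within 1 kb of the start of *Clic4* (174, 288 and 109 reads), 50.1 kb upstream of P1 (33, 125 and 56) and 11.7 kb past the gene end (78, 74 and 74). *Runx1* had 1, 5 and 4 distal peaks, none of them shared by the 3 clones.

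**Figure D3:**
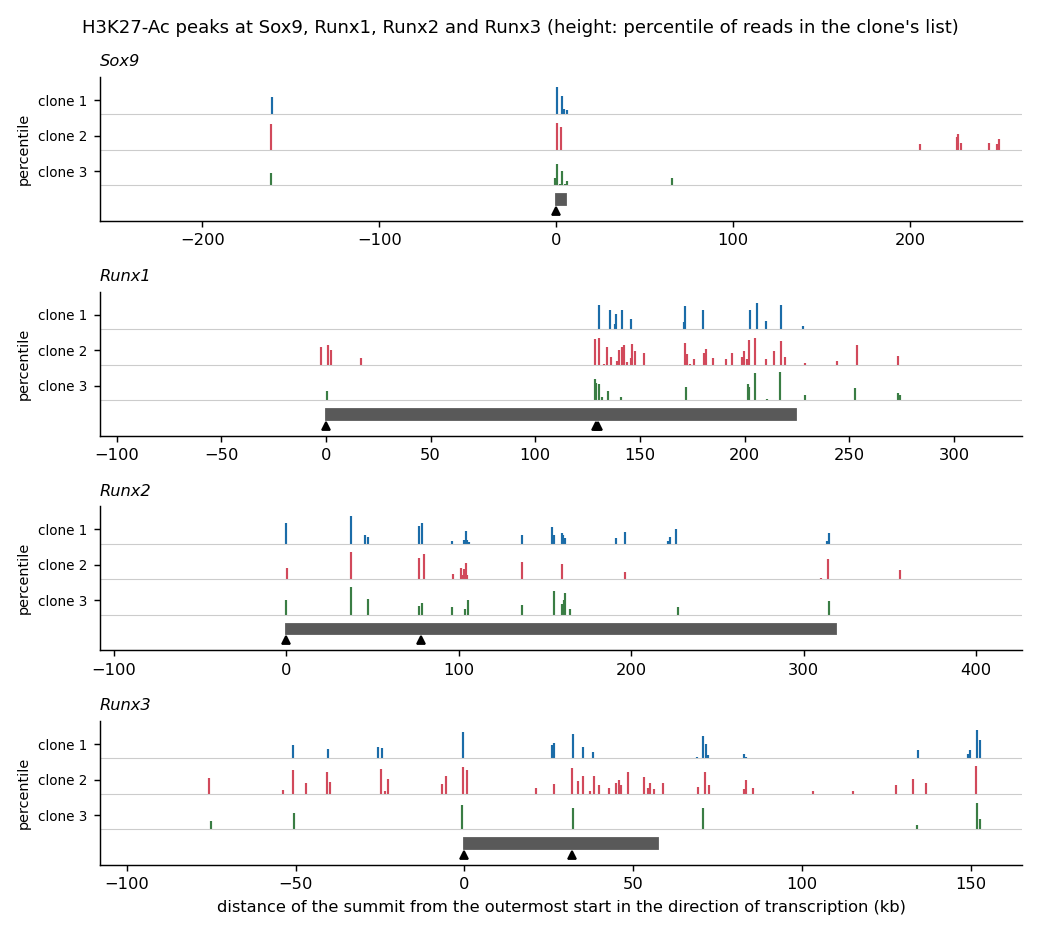
H3K27-Ac peaks at *Sox9*, *Runx1*, *Runx2* and *Runx3*, placed by the distance of the summit from the outermost start in kb (x axis), 1 row per clone, with the height of a line giving the percentile of its reads (0 to 100) in the list of that clone. Grey bars are the gene bodies and triangles the start groups. *Sox9* shows its 1 shared upstream site, *Runx1* is marked mostly past P2, and *Runx3* has many peaks in clone 2 and few in clone 3.

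*Gata3*, whose product is also known from T cells, was marked at inner starts and not at its outermost one (chr2:9857078-9890034, minus strand). The start 11.4 kb inside the gene had 58, 142 and 53 reads in the 3 clones, which are percentiles 66.5, 82.2 and 50.1. The outermost start and the next one had no peak in any clone. Within 1 kb of a non-coding start 14.6 kb inside the gene, clones 1 and 2 shared a site of 13 and 61 reads, and clone 3 had a separate peak of 38 reads on the other side. None of them covered that start. A pattern of this kind, the outermost coding start group without a peak in every clone and an inner one with a peak in all 3, was found in 5.05% of 7326 genes. The start of *Gm13256*, an antisense transcript, lies within 1 kb of the same peak. A site 65.4 kb upstream had 26, 53 and 81 reads, and 1 at 64.3 kb downstream had 98 reads in clone 3 and no peak in the others. The upstream site is the only one of *Gata3* beyond its body in all 3 clones, and its window, centred on the middle one of summits that spread over 592 bp, holds none of the 4 words.
Gata3 upstream element (chr2:9955858-9956058, minus strand): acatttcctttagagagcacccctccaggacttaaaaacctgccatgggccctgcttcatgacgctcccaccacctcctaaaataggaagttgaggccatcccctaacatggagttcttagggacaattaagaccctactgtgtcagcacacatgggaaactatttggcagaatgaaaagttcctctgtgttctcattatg

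*Gata6* carried a single stretch of H3K27-Ac, at its start (chr18:11052064-11085635, plus strand). The peak there had 71, 220 and 65 reads, percentiles 72.8, 88.7 and 64.1, and covered 8.42%, 9.53% and 6.03% of the gene. It had neither a body peak nor a distal peak within 100 kb in any clone. No distal peak in any clone was the case for 17.7% of all genes. The start of *1010001N08Rik* lies within 1 kb of the same peak.

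Merged over the 3 lists, the peaks at the 9 genes formed 165 stretches. Of these 39 had peaks of all 3 clones, 29 of 2 clones and 97 of 1 clone, and 76 of the 97 were in clone 2 only. The share in all 3 clones was 23.6%, and over all 57727 stretches of the series it was 27.3%. Of all stretches 14.0% had peaks of 2 clones and 58.7% of 1 clone. The share in clone 2 only was not formed over the series. Of all peaks of clone 2, 36.6% lay in a stretch of all 3 clones, against 66.9% and 65.4% in clones 1 and 3. At the 9 genes the share in all 3 clones was 12 of 23 for promoter stretches, 15 of 72 for body stretches and 12 of 70 for distal ones. *Runx2* had the most stretches in all 3 clones, 9 of 24, and *Runx3* had 5 of 45. Shares by kind or by gene were not formed over the series, so these differences cannot be called particular to the 9 genes. With summits within 250 bp of each other in place of any overlap, 26 were shared.

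**Figure D4:**
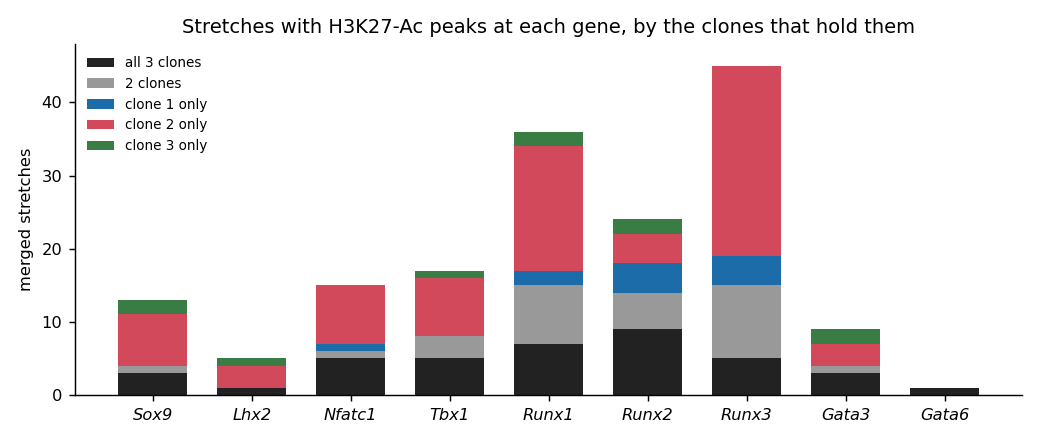
Number of merged stretches with H3K27-Ac peaks (y axis) at each of the 9 genes (x axis), stacked by the clones that hold them. Stretches of clone 2 only make up 26 of 45 at *Runx3* and 17 of 36 at *Runx1*, and 4 of 24 at *Runx2*. Clone 2 had the most peaks over the whole series, and its share over all stretches was not formed.

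Neighbouring peaks were joined into domains over a gap that is usual when super-enhancers are defined (gaps of 5 and 20 kb were the alternatives), and the domains were ranked within each clone by the bases under peaks among 14560, 18280 and 16371 domains. The domains of the 9 genes had a median rank of 910.5, 1421 and 1714.5 (mean over clones 1349 ± 407, SD, n = 3), with 8, 9 and 8 genes holding a domain. *Runx1* ranked highest in clones 1 and 3 (ranks 79 and 186) and was at rank 270 in clone 2, the top 0.543%, 1.48% and 1.136%. In clone 1 that domain was 17.9 kb that began just before P2 and ran on into the gene. In clones 2 and 3 it was the 57.7 and 27.7 kb at the end of the gene. *Runx3* was first in clone 2 (rank 167), and was at rank 437 in clone 1 and 1735 in clone 3. *Sox9* ranked 831, 1698 and 404, and *Gata6* 2346, 2634 and 3908. Among the top 10.0% of all domains were those of 6, 6 and 3 genes. The 10.0% is a share of domains, which had a median of 1 peak in each clone. The share of all protein-coding genes whose largest domain ranks this high was not formed, so these counts do not show an excess. The domain with the most bases was taken for each gene, so a long gene with several (*Runx2* had 9, 8 and 8) has more chances, and this was not corrected for. Ranked by width times fold enrichment, the median rank was 2409 in place of 1349.

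**Figure D5:**
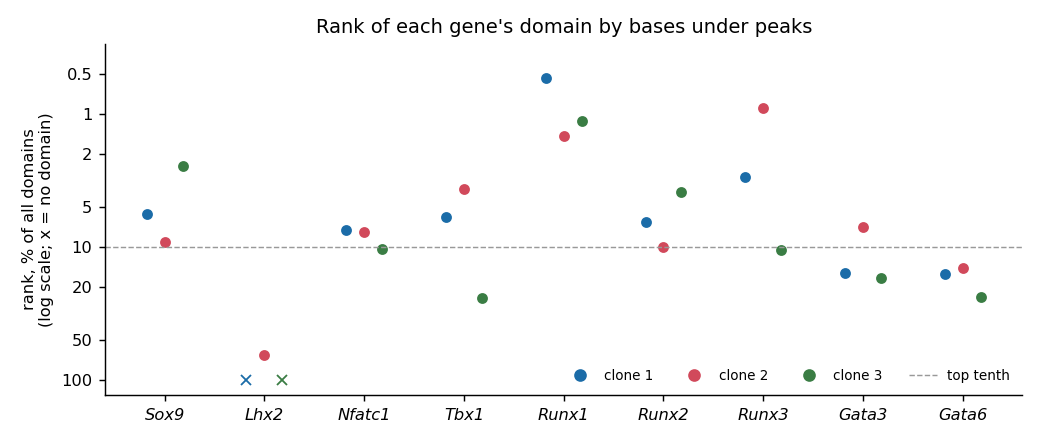
Rank of the largest domain at each of the 9 genes (x axis), as a percentage of all domains of the clone (y axis, log scale, highest rank at the top); crosses mark *Lhx2* in clones 1 and 3, which had none, and the dashed line marks the top 10.0%. *Runx1* lies between 0.543% and 1.48% in the 3 clones, and *Gata6* between 14.4% and 23.9%.

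Among 40 partners and other regulators of the hair follicle, 18 carried one at the promoter in each of the 3 clones and 15 in no clone, beside 46.5% and 42.6% of all genes. *Cbfb*, the partner of the RUNX proteins, had 229, 355 and 157 reads, and *Ldb1*, which binds LIM-homeodomain factors such as LHX2, had 103, 361 and 94. Of the GATA cofactors, *Zfpm1* had 147, 353 and 81 reads, and *Zfpm2* had 26 and 112 in clones 1 and 2 and no peak in clone 3. *Gata2* had 20, 97 and 37, and *Gata1*, *Gata4* and *Gata5* had none. In the *Sox* family *Sox4* had 127, 249 and 114 reads, *Sox5* had 15, 162 and 42 and *Sox21* had 24, 139 and 40. *Sox6* had 25 in clone 1 only, and *Sox2* and *Sox18* had none. The Notch target *Hes1* (218, 325 and 139) and *Id2*, an inhibitor of bHLH factors (183, 292 and 146), were, with *Cbfb* and *Zfpm1*, the 4 with the most reads summed over the clones. Within clones the order differed: *Foxc1* had 120 reads in clone 3 and *Vdr* 184 in clone 1, more than *Zfpm1*.

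The 300 bases around each summit were searched on both strands for 4 words, leaving out chromosome 18. They were the RUNX and AP-1 words given above, a GATA word spelled AGATAA, and a SOX word with the letters ACAAAG. The RUNX word was in 10 of 81, 23 of 137 and 15 of 64 peaks of the remaining genes in clones 1, 2 and 3, which is 12.3%, 16.8% and 23.4%, beside 17.1%, 19.7% and 17.7% of all peaks. The GATA word was in 3.70%, 10.2% and 14.1%, beside 9.56%, 6.69% and 11.1%. The SOX word was in 18.5%, 19.7% and 14.1%, beside 19.6%, 17.3% and 21%. The AP-1 word was in 7.41%, 11.7% and 7.81%, beside 6.65%, 8.94% and 8.05%. For none of the 4 words were the peaks of these genes on the same side of all peaks in all 3 clones.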

How the data were processed

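H3K27-Ac and IgG ChIP-seq libraries of 3 clones were read as single ends. Per the methods of the study, the authors mapped reads to GRCm38 with Bowtie2, and the submitters' processing notes name MACS2 2.1.1. The deposited peak lists hold, per peak, a fold enrichment ratio over the local control and the −log10 of the p-value and q-value. The libraries of clone 3 were pooled before peaks were called. Peak names of clones 1 and 2 state a filter for allelic mapping bias and those of clone 3 do not, so the lists differ in processing.

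The read number under a summit follows from its fold and p-value and was solved for each peak. All values came out whole within 0.00106 of a read, which gave 13.3, 13.7 and 35.8 M ChIP reads and 5.62, 5.86 and 11.1 M control reads as estimates (for clone 2, of an unnamed control). In lists simulated with the same formula for fold and p-value, 100% of reads were recovered. This checks the solving and cannot show that the deposited lists follow the formula. A further 5, 21 and 3 peaks outside chromosomes 1 to 19, X and Y were not used. Intervals cover counting error only, as reads without molecular identifiers are not independent molecules. Each clone is 1 sample, so the SD covers these 3 clones.

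Genes and starts came from GENCODE M21, promoter entries from RefSeq (GRCm38.p6). All 9 genes were named. Of the 40 companion genes, those sharing a family or partner with the 9 were named, with up to 4 of the most reads. The genes and lists were chosen with earlier results of these data known. No test was made, as there was 1 condition. Alternatives were window, threshold, equal peak numbers, joining distance and each clone left out. Scripts ran in Python 3.11.15 with pandas 2.3.3, pysam 0.24.0, scipy 1.17.1, Biopython 1.88 and numpy 2.4.6.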

Additional observations from a re-analysis of the deposited data

How the results depend on the processing

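Of 68 alternative values of 9 results, 57 stayed within the spread between clones, or within 1.5 times for counts, and 11 moved beyond it. At −log10 q of at least 5, body peaks per gene fell to a mean of 3.11 from 5.26 ± 2.21, distal peaks of *Sox9* to 2.33 from 4.33, and those of the other 8 genes to 21.7 from 33.3. With equal peak numbers per clone *Sox9* had 2.33 distal peaks. It had 1.00 within 100 kb and 13.7 within 500 kb, and the other 8 genes had 19.3 within 50 kb and 100.3 within 250 kb. Without 1 clone in turn, the distal peaks of *Sox9* ranged from 2.50 (without clone 2) to 5.50. The median domain rank was 2409 by width times fold enrichment, against 1349. The P1 share of *Runx3* was 40.5% by fold enrichment, against 56.5%. At −log10 q of at least 5 the P1 share of *Runx1* rested on clone 2 alone (24.5%, against 31.0%). The causes were not tested. Alternatives for the *Runx* promoters, and the rank of 1370 with absent domains placed last, were chosen after seeing the data. No paired analysis was possible because the samples form 1 condition and no result comes from a test between groups. Depth limits what the lists hold: at least 13, 12 and 25 reads at a summit, so a missing peak does not show a missing mark.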
